A study of Mus musculus with 3 samples.

Results

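Gene expression in mouse ankle synovium cells cultured for 24 h on an 8 kPa plate was compared with that of the same kind of cells cultured on a 0.2 kPa plate. A gene entered the comparison when its mean over the study's 3 libraries reached 50 normalized counts, which left 11873 of the 56833 genes in the deposited table. The cells came from mice of genotype Efhd1CreER; Ai9, in which Cre recombinase from the Efhd1 gene switches on the red fluorescent protein tdTomato, and were sorted for that fluorescence after enzymatic digestion of the tissue. They were cultured on CytoSoft plates, whose silicone surface of set stiffness was coated with collagen, at 0.2, 8 or 64 kPa. The labels call the cells telocytes and give the same genotype, tissue and culture medium for every library. Ages, sexes, the number of animals and any tamoxifen dose were not given in the sources used here, and digestion tubes held up to 2 synovia.

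Each stiffness had 1 library. No difference described here therefore has a replicate check, no test was made, and a difference between stiffness levels and a difference between culture wells cannot be told apart. The libraries held 25487064 reads at 0.2 kPa, 28081600 at 8 kPa and 26474862 at 64 kPa, and the 11873 genes took 99.7% of the reads in each. A level is given in normalized counts, the authors' gene count divided by a size factor for the library, and 1 read was worth 1.03, 0.943 and 1.03 normalized counts at 0.2, 8 and 64 kPa. The term ratio stands for the log2 ratio of the 8 kPa to the 0.2 kPa library, computed after adding 1 to both levels, so a positive ratio means a higher level at 8 kPa. Sets of 3 levels are in the order 0.2, 8 and 64 kPa throughout. Intervals of ratios were obtained from the share of a gene's reads that fell in the 8 kPa library (exact Clopper-Pearson, 95%, without the added 1). They express the error of counting alone, and reads copied by amplification make even that error too small.

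Fibroblast-like cells of the joint sense the stiffness of what they adhere to through integrins and focal adhesions, which pull on the substrate through actin and myosin. Tension is passed on to the nucleus by the actin-regulated coactivators MRTF, which act with SRF, and by YAP and TAZ, which act with TEAD factors. Attachment, growth factors and calcium also induce the immediate early genes, a set of transcription factors and regulators that need no new protein synthesis to be transcribed. Interferon response genes are induced by a separate route, through STAT and IRF factors that bind the interferon-stimulated response element.

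The promoter sequences of 4 genes are shown because the early, chemokine and interferon genes, on which the results below turn, are each known for a short promoter element. Each is the 250 bases before the start of the gene's Ensembl canonical transcript in GENCODE vM39, read 5′ to 3′ on the gene's strand from GRCm39, and capitals mark an element chosen for the gene's group and found by letter search, while other searched elements, where present, stay in lower case. The promoter of Fosb, an early transcription factor gene, lies at chr7:19043977-19044226 on the minus strand, and the capitals mark an Egr site. Ccl20, a chemokine gene, lies at chr1:83094237-83094486 on the plus strand, with an NF-kappaB site in capitals. Oas3 and Ifit1, interferon response genes, lie at chr5:120915730-120915979 on the minus strand and chr19:34618021-34618270 on the plus strand, with interferon-stimulated response elements in capitals, 1 in Oas3 and 2 in Ifit1.
Fosb: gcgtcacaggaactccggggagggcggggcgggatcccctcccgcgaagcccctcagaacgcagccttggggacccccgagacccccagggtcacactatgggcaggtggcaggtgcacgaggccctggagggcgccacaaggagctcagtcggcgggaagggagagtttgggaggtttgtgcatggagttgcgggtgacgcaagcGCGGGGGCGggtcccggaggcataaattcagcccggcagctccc
Ccl20: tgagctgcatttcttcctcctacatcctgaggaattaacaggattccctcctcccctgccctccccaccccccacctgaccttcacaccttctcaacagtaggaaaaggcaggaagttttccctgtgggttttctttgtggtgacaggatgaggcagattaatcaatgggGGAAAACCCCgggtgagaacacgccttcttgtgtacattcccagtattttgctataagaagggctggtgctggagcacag
Oas3: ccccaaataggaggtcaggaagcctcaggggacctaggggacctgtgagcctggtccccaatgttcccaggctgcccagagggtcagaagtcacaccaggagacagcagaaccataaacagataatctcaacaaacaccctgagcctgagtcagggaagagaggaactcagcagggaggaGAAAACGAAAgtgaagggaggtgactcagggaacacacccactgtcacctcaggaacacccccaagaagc
Ifit1: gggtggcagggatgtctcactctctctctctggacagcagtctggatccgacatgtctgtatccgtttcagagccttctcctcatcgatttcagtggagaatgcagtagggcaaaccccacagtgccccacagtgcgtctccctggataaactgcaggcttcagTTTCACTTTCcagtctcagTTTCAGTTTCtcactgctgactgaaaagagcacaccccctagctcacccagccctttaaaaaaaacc
The promoters of Arc, Nr4a3, Ccl3, Gbp5 and Cxcl9 are not printed, because the search for their group's elements (cAMP response, CArG, AP-1 and Egr for Arc and Nr4a3, NF-kappaB and AP-1 for Ccl3, interferon-stimulated and NF-kappaB for Gbp5 and Cxcl9) found none in this window. A match of letters is a description of the sequence and does not show that a factor was bound.

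Markers were examined first, to see which cells the RNA came from. Efhd1, a calcium-binding mitochondrial protein gene whose locus drives the Cre (chromosome 1, 87192031 to 87238565, plus strand, GRCm39), was covered by 10 reads at 0.2 kPa, 5 at 8 kPa and 3 at 64 kPa. That is a ratio of -0.98 with an interval from -3.02 to 0.56, so no difference was detectable at this depth, and Efhd1 lay under the mean of 50. tdTomato, the reporter itself, stood at 818, 1193 and 2668 normalized counts, a ratio of 0.54. The reporter is switched on permanently by Cre, so its presence marks past rather than present Efhd1 expression.

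Of the 9 genes listed as telocyte markers, 5 passed the mean of 50, and 4 of these were higher at 8 kPa with a median ratio of 0.10. Pdgfra, the platelet-derived growth factor receptor alpha, stood at 5884, 6298 and 5118, Pdgfrb at 7766, 8354 and 7732 and Vim, the filament protein vimentin, at 94005, 103009 and 111934. Cd34 stood at 235, 242 and 318 and Foxl1, a transcription factor gene, at 238, 233 and 186, and none of the 5 reached a ratio of 0.5 in size. Gli1, Kit and Ano1 lay under the mean of 50, at 9.23, 11.3 and 8.2, 42.03, 38.7 and 45.1 and 26.7, 46.2 and 51.3. General fibroblast markers were abundant in both libraries: 8 of 12 were higher at 8 kPa, with a median ratio of 0.08, from -0.37 for Lum, the collagen-binding proteoglycan lumican, to 0.49 for Col1a1. Progenitor fibroblast markers had a median of -0.03 over 11 genes, synovial lining markers -0.01 over 6 and sublining markers 0.04 over 10.

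RNA of macrophage marker genes and of genes common to leukocytes was also present, and its values stand beside the immune results below. T cell, natural killer cell and B cell markers had no gene with a mean of 50, and their summed levels were at most 43.1, 5.66 and 9.43 normalized counts in any library. No erythroid marker had a read. Of 12 endothelial markers 2 passed the mean of 50, Esam at 78.9, 86.7 and 280.0 and Egfl7 at 121, 146 and 111, and Cldn5, a defining tight junction gene of endothelium, had no read. These shares of other cell types were too small to be described further.

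The 2 libraries were close for most genes. The ratio had a median of 0.01, quartiles of -0.08 and 0.14, and 95% of genes lay between -0.32 and 0.58. Within 0.25 of 0 lay 9699 genes, which is 81.7%. By any amount, 6348 genes were higher at 8 kPa (53.5% of all) and 5525 were lower. A ratio of at least 0.5 was used as the mark of a larger difference: 468 genes were higher by that much, 3.94% of those compared, and 78 were lower, 0.657%. A ratio of at least 1 in size was reached by 20 genes, 0.168%, of which 19 were higher at 8 kPa. The counting interval lay wholly above 0 for 2594 genes (21.8%) and wholly below 0 for 1599 (13.5%), and it left out 0 for 451 of the 468 higher and 69 of the 78 lower genes. For scale, the 64 kPa library differed from the same 0.2 kPa library by at least 0.5 for 1402 genes higher (11.8%) and 448 lower (3.77%).

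**Figure D1:**
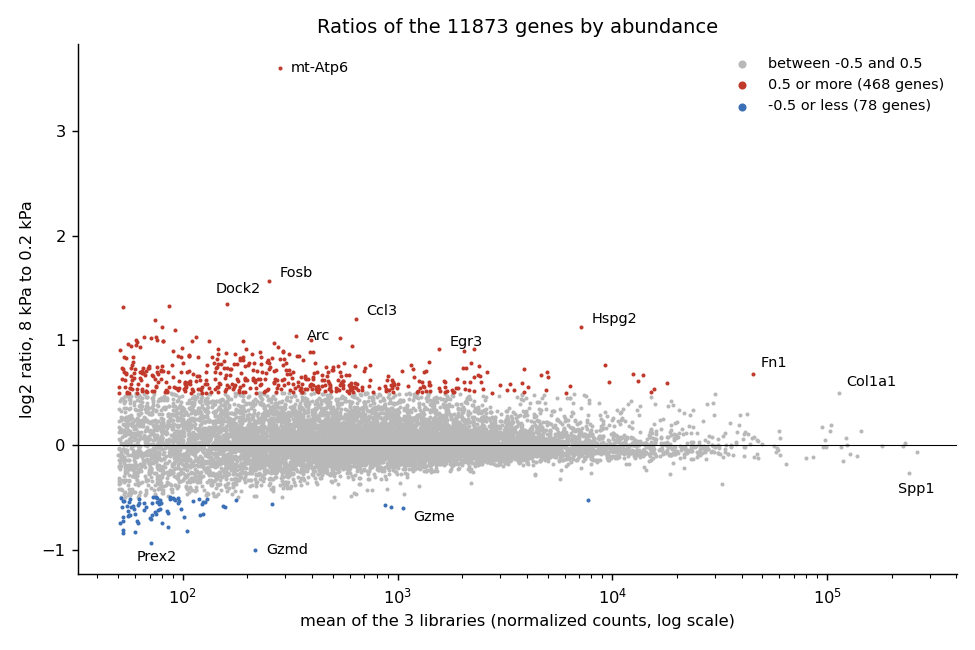
Log2 ratio of the 8 kPa to the 0.2 kPa library (vertical axis) against the mean normalized count of the 3 libraries (horizontal axis, log scale), 1 point for each of the 11873 genes. The 468 genes at 0.5 or more are red, the 78 at -0.5 or less are blue, and the spread narrows as abundance rises, with mt-Atp6 alone at 3.60.

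The genes lower at 8 kPa were mostly low in abundance, and those higher were less so. Of the 78 lower genes, 59 (75.6%) had a mean under 100 normalized counts, against 102 (21.8%) of the 468 higher genes and 963 (8.11%) of all genes. Between means of 50 and 100, 10.6% of genes were higher and 6.13% lower by 0.5, where the typical half-width of the counting interval was 0.50. Above a mean of 5000, 1.29% were higher and 0.0991% lower, at a half-width of 0.04. The single lower gene in that top class was Penk, described with the neural-type genes. Just inside the mean of 50 lay Fam110c at 52.3, 49.02 and 49.2 and Reep1 at 54.3, 50.9 and 45.1, and just outside it Adora2a at 60.5, 57.5 and 31.8 and Gm16867 at 50.2, 56.6 and 43.1.

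Fosb, a subunit of the AP-1 transcription factor, had the highest ratio among named genes outside the mitochondrial genome (chromosome 7, 19036621 to 19043976, minus strand, 4 exons). It stood at 155, 461 and 140.5 normalized counts, a ratio of 1.57 with an interval from 1.31 to 1.85. The 8 kPa library was high and the other libraries were alike and low. Arc, a capsid-like regulator known from neurons, followed the same pattern at 239, 492 and 279, a ratio of 1.04.

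A second pattern among the highest ratios was a level that was higher still at 64 kPa. Dock2, an activator of the GTPase Rac in leukocytes, stood at 63.6, 163 and 254, a ratio of 1.35 with an interval from 0.93 to 1.80. Hspg2, the basement membrane proteoglycan perlecan (chromosome 4, 137196079 to 137298231, plus strand, 97 exons), stood at 3313, 7266 and 10836, a ratio of 1.13 with the narrow interval from 1.07 to 1.19. Its canonical transcript of 14502 bases is long and rich in GC, a property taken up below. Zfp469, a zinc finger gene (55.4, 114 and 177), Upf3b, a factor of nonsense-mediated decay (34.9, 71.6 and 108), Arhgap4, a GTPase-activating protein (19.5, 49.96 and 89.2), and Nav2, a cytoskeletal guidance protein (292, 597 and 724), were ordered in the same way.

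The remaining genes among the 15 highest were immune or low in abundance. Gbp5, an interferon-inducible GTPase, stood at 45.1, 115 and 98.4, a ratio of 1.33. Ccl3, a chemokine that draws in macrophages and T cells, stood at 378, 874 and 666, a ratio of 1.21, and Ccl20, the ligand of CCR6, at 43.1, 95.2 and 100.5, a ratio of 1.13. Both chemokine genes were lowest at 0.2 kPa. Csmd1 (41.01, 95.2 and 87.2), Dock10 (46.1, 99.9 and 131), Kif26b (48.2, 99.9 and 77.9) and Syne1, the giant nuclear envelope protein nesprin-1 (44.1, 91.4 and 62.6), lay between ratios of 1.20 and 1.04.

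**Figure D2:**
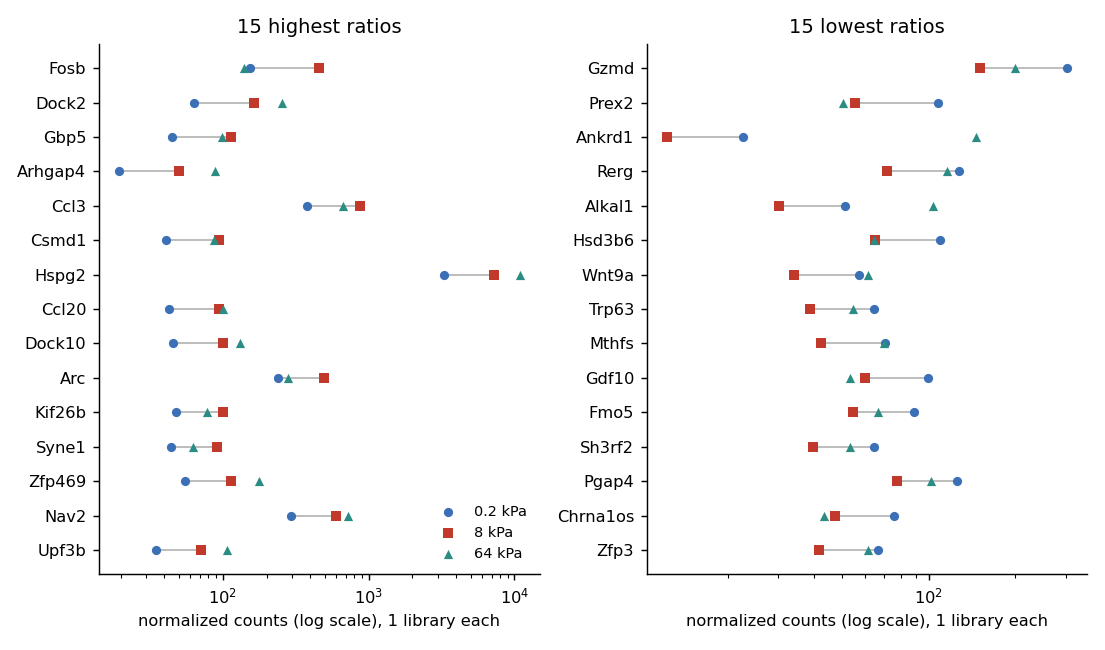
Normalized counts (log scale) in the 0.2 kPa (blue circle), 8 kPa (red square) and 64 kPa (green triangle) library of the 15 named genes with the highest and the 15 with the lowest ratio, 1 library each. Grey lines join the 0.2 and 8 kPa values; Fosb and Arc have their 64 kPa value near the 0.2 kPa value, while Ankrd1 and Alkal1 are lowest at 8 kPa and highest at 64 kPa.

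Gzmd, a granzyme gene, had the lowest ratio and the only one at -1. It stood at 303, 151 and 199, a ratio of -1.004 with an interval from -1.30 to -0.73, and its transcript is 93.8% identical to that of Gzme over 928 bases, so the split of reads between them is uncertain. Prex2, an activator of Rac, stood at 108, 55.6 and 50.2, a ratio of -0.94, and was about as low at 64 as at 8 kPa. Ankrd1, a muscle ankyrin repeat protein and YAP target, stood at 22.6, 12.3 and 146, a ratio of -0.83, with an interval from -1.99 to 0.17 that holds 0. Alkal1, a ligand of the receptor ALK, stood at 51.3, 30.2 and 104 and Rerg, a Ras-like growth inhibitor, at 127, 71.6 and 116. Wnt9a, a Wnt ligand of the joint, stood at 57.4, 33.9 and 61.5, and Gdf10, a ligand of the TGF-beta family, at 99.4, 60.3 and 53.3. Hsd3b6, Trp63, Mthfs, Fmo5, Sh3rf2, Pgap4, Chrna1os and Zfp3 completed the 15, with ratios between -0.75 and -0.67 and levels of at most 125 in every library. Hsd3b6 and Mthfs each have a near copy, Hsd3b3 at 93.9% and Mthfsl at 99.4% identity, which makes their counts uncertain too.

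Immediate early genes were higher at 8 kPa almost throughout. Of 34 that passed the mean of 50, 33 had a positive ratio, 24 with an interval above 0, and the median was 0.25 against 0.01 over all genes. A ratio of 0.5 was reached by 9, against 3.94% of all genes, and a ratio of -0.5 by none. At 64 kPa the median log2 ratio to 0.2 kPa was 0.29, and 14 passed 0.5 and 1 passed -0.5, against 11.8% and 3.77% of all genes. Of the 34, 12 were higher at 8 kPa than in both other libraries, which was so for 23.2% of all genes. The single negative value at 8 kPa was that of Ier5l, at -0.05. Fosl2, the most abundant, had a ratio of 0.11. After a trend of the ratio with length and GC content of the transcript, described below, was subtracted, 32 had a positive value and 5 passed 0.5, with a median of 0.21; Fosl2 was then at -0.15.

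The Egr factors, zinc finger proteins induced by growth factors, split at 64 kPa. Egr1 stood at 6895, 10499.8 and 11459, a ratio of 0.61, and was highest at 64 kPa. Egr2 stood at 1471, 2250.2 and 1217, a ratio of 0.61, and Egr3 at 1324, 2495 and 856, a ratio of 0.91 with an interval from 0.82 to 1.01. Egr2 and Egr3 were highest at 8 kPa and lowest at 64 kPa. Nr4a1, an orphan nuclear receptor, stood at 1205, 1729 and 1330.1, a ratio of 0.52, and Nr4a3 at 130.2, 240.4 and 105, a ratio of 0.88. Both were highest at 8 kPa, whereas Per1, a clock gene (284, 446 and 487), and Sik1, a kinase of the cAMP response (140.4, 206 and 314), were highest at 64 kPa.

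Of the 14 cAMP response genes, 11 were higher at 8 kPa, with a median of 0.31, and 5 by at least 0.5, against 3.94% of all genes. These 5, Fosb, Nr4a1, Nr4a3, Per1 and Sik1, are also in the early gene list. After subtraction of the trend the median was 0.14 and 2 passed 0.5, with Per1 at 0.36 and Sik1 at 0.17. Dusp1, a phosphatase that turns off MAP kinases, was the most abundant and slightly lower, at 2629.6, 2322 and 4000.5, and Bdnf, a neurotrophin, was lowest by ratio, at 464, 374 and 485. Of 18 genes of MAP kinase feedback, 15 were higher with a median of 0.17, and Dusp5, the nuclear phosphatase of ERK, alone passed 0.5, at 1185, 1767 and 1264, a ratio of 0.58.

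All 7 measured genes of the EGF receptor family and its ligands were higher at 8 kPa, with a median of 0.33. Ereg, the ligand epiregulin, stood at 5424, 8041 and 5662, a ratio of 0.57 with an interval from 0.52 to 0.62, and Errfi1, a feedback inhibitor of the receptor, at 13423, 16377 and 10295. Both were highest at 8 kPa. Hbegf, another ligand, stood at 1539, 1964 and 2550.4 and Erbb2, a receptor, at 763, 903 and 964, and both were highest at 64 kPa.

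Interferon response genes were higher at 8 kPa with 1 exception. Of 37 that passed the mean of 50, 36 had a positive ratio, 31 with an interval above 0, and the median was 0.36. A ratio of 0.5 was reached by 11, against 3.94% of all genes, and -0.5 by none. In the 64 kPa library the same genes had a median log2 ratio to 0.2 kPa of -0.25, and 36 of the 37 were higher at 8 kPa than in both other libraries, which was so for 23.2% of all genes. The interferon gene Ifnb1 was among the listed genes that did not pass the mean of 50.

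The oligoadenylate synthetase family, which holds sensors of double-stranded RNA and the synthetase-like Oasl1 and Oasl2, had some of the highest ratios. Oas3 (chromosome 5, 120891163 to 120915729, minus strand) stood at 126, 239 and 226, a ratio of 0.91 with an interval from 0.60 to 1.24. Oasl1 stood at 39.98, 65.05 and 58.5, Oasl2 at 539, 815 and 460.4 and Oas1a at 188, 280.0 and 219, the last with a near copy, Oas1g, at 97.6% identity. Oasl1 rested on 39 reads at 0.2 kPa and 69 at 8 kPa, with an interval from 0.12 to 1.31. Oas3, Oasl1 and Oas1a were lowest at 0.2 kPa, and Oasl2 was lowest at 64 kPa.

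Irf7, the master transcription factor of the response, stood at 1099, 1779.8 and 1124, a ratio of 0.70 with an interval from 0.59 to 0.81. The GTPase Gbp2 stood at 507, 859 and 538, a ratio of 0.76, and Slfn8, of the Schlafen family, at 136, 226 and 143, a ratio of 0.73. These 3 were at nearly the same level in the 0.2 and 64 kPa libraries and higher at 8 kPa. Isg15, a ubiquitin-like modifier, stood at 626, 913 and 384, a ratio of 0.54, and was lowest at 64 kPa, as was Zbp1, a nucleic acid sensor, at 227, 324 and 175. Parp14 (297, 461 and 364) and Bst2, which tethers budding viruses (1865, 2688 and 1921), completed the 11. Slfn8 and Isg15 have near copies, Slfn9 at 92.6% and Gm9706 at 95.2% identity, which makes their counts uncertain. Lgals3bp, the most abundant, stood at 9939, 12580.4 and 11132, a ratio of 0.34, and Ifi47 was the single gene with a negative ratio, at 179, 158 and 140.5.

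Antigen presentation genes were higher in 12 of 13 cases with a median of 0.15 and none past 0.5. B2m, the light chain of class I molecules, stood at 18482, 21479.5 and 20371, and Cd74, the class II invariant chain, at 122, 151 and 204, the highest ratio of the group at 0.30.

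**Figure D3:**
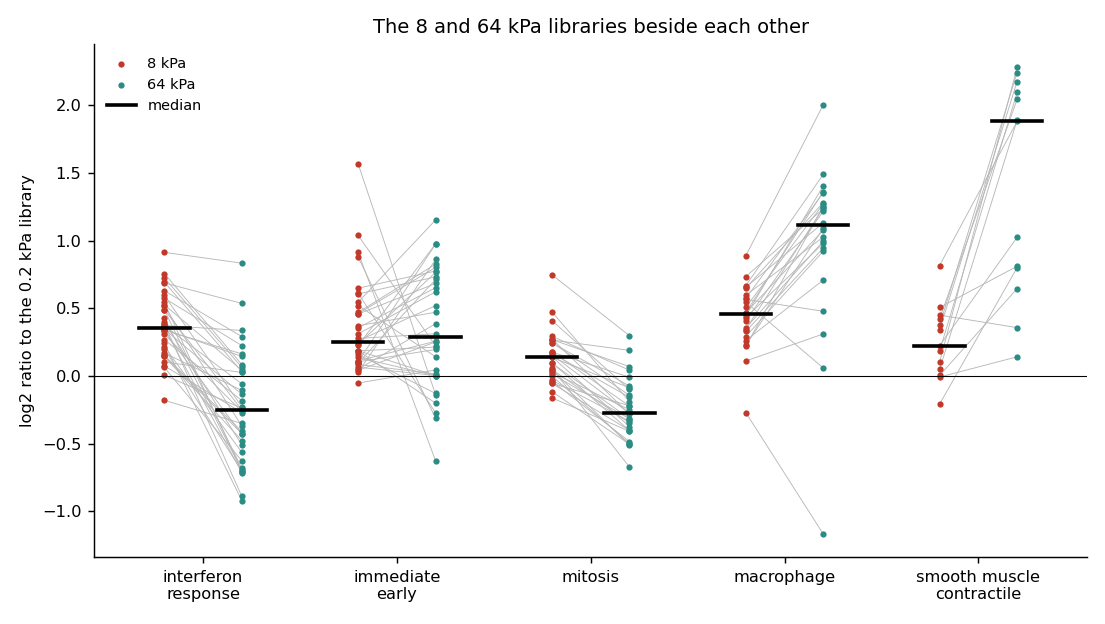
Log2 ratio to the 0.2 kPa library of the 8 kPa (red) and 64 kPa (green) library for the members of 5 gene lists; grey lines join the values of a gene and black bars are medians. The interferon and mitosis medians are above 0 at 8 kPa (0.36 and 0.14) and below it at 64 kPa (-0.25 and -0.28), while macrophage and contractile medians are higher at 64 kPa; both ratios share the 0.2 kPa library.

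Mitosis genes were slightly higher at 8 kPa and lower at 64 kPa. Of 29, 23 had a positive ratio with a median of 0.14, and 15 had an interval above 0 and none below. The median log2 ratio of 64 to 0.2 kPa was -0.28, and 23 of the 29 were highest at 8 kPa, as were 23.2% of all genes. Aspm, a spindle pole protein, was the only one past 0.5, at 111, 187 and 136, a ratio of 0.75. Cdk1, the mitotic kinase, was the most abundant, at 3537, 3658 and 2781, a ratio of 0.05, and Ndc80, of the kinetochore, had the lowest ratio, at 369, 329.9 and 278. Of 31 DNA replication genes, 12 were higher, with a median of -0.04, from -0.32 for Gins1 to 0.30 for Chaf1a. In RNA from a whole culture, fewer cells of a kind and less RNA per cell cannot be told apart.

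CC chemokine genes were higher at 8 kPa in 8 of 10 cases, with a median of 0.42, and 5 passed 0.5, against 3.94% of all genes. Ccl3 and Ccl20 are given above. Ccl4, a chemokine close to Ccl3, stood at 249, 449.7 and 347, a ratio of 0.85 with an interval from 0.63 to 1.08. Ccl12 stood at 88.2, 146 and 265 and Ccl6 at 9978, 14204 and 21426, ratios of 0.72 and 0.51. Ccl3 and Ccl4 were highest at 8 kPa and the other 3 at 64 kPa. Ccl2, the monocyte attractant and the most abundant, differed little, at 21915, 23713 and 20602, and Ccl8 was lower at 8 than at 0.2 kPa, at 162, 142 and 125.

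Of 11 CXC and related chemokine genes, 10 were higher with a median of 0.13. Cxcl9, an interferon-induced attractant of T cells, was the only one past 0.5, at 80.99, 146 and 65.6, a ratio of 0.84, and Cxcl14, the most abundant, was the single lower one, at 22822, 19653 and 22289. Of 14 cytokine genes, 11 were higher with a median of 0.24. Il1a, interleukin 1 alpha, stood at 91.2, 183 and 124, a ratio of 0.995 with an interval from 0.63 to 1.38, and Lif, a cytokine of the interleukin 6 family, at 1714, 2597 and 1831, a ratio of 0.60. Both were highest at 8 kPa. Csf1, the growth factor of macrophages and the most abundant of the group, stood at 33996, 41721 and 51726, and Tslp had the lowest ratio, at 727, 670.3 and 439.

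NF-kappaB subunits, inhibitors and targets were higher in 13 of 15 cases with a median of 0.26. The inhibitors Tnfaip3 (446, 656 and 709) and Tnip1 (441, 648 and 734) passed 0.5, but at 0.47 and 0.47 neither did after subtraction of the trend, when the median was 0.14. Vcam1, an adhesion molecule and the most abundant, stood at 10238, 9797 and 7292. Prostaglandin genes had a median of -0.03 over 14, and their most abundant member, Ptgs2, the inducible cyclooxygenase, stood at 21994, 28806 and 31599.8, a ratio of 0.39.

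Macrophage markers were higher at 8 kPa in 23 of 24 cases, 23 with an interval above 0, and higher again at 64 kPa for most. The median ratio was 0.46 and 10 genes passed 0.5, against 3.94% of all genes. The median log2 ratio of 64 to 0.2 kPa was 1.11. Marco, a scavenger receptor, stood at 170.2, 316 and 686, a ratio of 0.89, C1qa, a complement subunit made by macrophages, at 330.1, 525 and 929, and Cd68 at 1365, 2141 and 3321. Each was lowest at 0.2 kPa and highest at 64 kPa. Adgre1, the F4/80 antigen, stood at 2395, 3404 and 5785, Cybb, an oxidase subunit, at 1524, 2403 and 3343 and Gpnmb at 11792, 17836 and 24036. Clec7a, a receptor for fungal glucans, was highest at 8 kPa, at 1597, 2333 and 1664.

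Spp1, osteopontin, is in the list but is also made by fibroblasts. It was the most abundant gene of the 0.2 kPa library and the single macrophage list member that was lower at 8 kPa, at 316083, 262242 and 140702, a ratio of -0.27 with an interval from -0.28 to -0.26. Without Spp1 the summed level of the other 26 listed macrophage genes was 56370, 74898 and 117461 normalized counts. Cx3cr1 had no read in any library.

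Genes common to leukocytes were higher in 26 of 27 cases, with a median of 0.36 and 8 past 0.5, against 3.94% of all genes. Beside Dock2, Myo1f, a leukocyte myosin, stood at 317, 546 and 820.4, a ratio of 0.78, Ncf4, of the phagocyte oxidase, at 161, 263 and 372, and Itgal, an integrin chain, at 272, 419.5 and 887. Ikzf1 alone had a negative ratio, at 82.01, 74.5 and 144. Of 25 scavenger, Fc and pattern recognition receptor genes, 21 were higher with a median of 0.35 and 9 past 0.5 (3.94% of all genes). Siglec1, sialoadhesin, stood at 137, 242 and 368, a ratio of 0.81, Fcgr4 had the lowest ratio, at 57.4, 42.4 and 103, and Axl, the most abundant, stood at 18990.5, 20388 and 24922. Macrophage RNA was thus higher at 8 kPa together with the chemokine, cytokine and interferon genes, and its part in those differences was not tested. At 64 kPa 3 of the 24 macrophage genes, Spp1, Clec7a and Fcgr1, were lower than at 8 kPa, as were all 37 interferon genes.

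The 3 measured genes of the granzyme cluster were all lower at 8 kPa, with a median of -0.61. Beside Gzmd, Gzme stood at 1343, 882 and 947, a ratio of -0.61 with an interval from -0.73 to -0.48, and Mcpt8, a basophil protease gene of the same chromosomal cluster, at 1134, 759.8 and 742, a ratio of -0.58. The 0.2 kPa library was highest for all 3. Gzma, Gzmk and Prf1, the perforin gene, had no read in any library, and natural killer and T cell markers were near 0 as given above.

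Neural-type genes held 4 of the 78 lower genes, where 0.657% of all genes were lower by 0.5. This list was written with earlier results of these data known. Its share of lower genes and its 64 kPa median are therefore no independent result. Of 13, 6 were higher and 7 lower, with a median of -0.13, and the median log2 ratio of 64 to 0.2 kPa was -0.98. Penk, which encodes the enkephalin precursor, stood at 11316, 7845 and 4004, a ratio of -0.53 with an interval from -0.57 to -0.49. Ndnf, a secreted neurotrophic factor, stood at 1415, 939 and 449, a ratio of -0.59, and Nnat, neuronatin, at 199.9, 126 and 46.1, a ratio of -0.66. These 3 were highest at 0.2 kPa and lowest at 64 kPa, while Rerg was lowest at 8 kPa. Sorcs2, a sorting receptor, was the single member past 0.5 higher, at 132, 206 and 300.5.

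Matrix genes were mostly higher at 8 kPa, and many of them have long transcripts. All 8 fibrillar collagen genes had a positive ratio, 7 with an interval above 0, with a median of 0.44 that became 0.13 after subtraction of the length and GC trend. Col1a1, the main chain of collagen I, stood at 78648, 110715 and 151834, a ratio of 0.49 and of 0.20 after subtraction. Col5a1 stood at 8242, 13131 and 20334, a ratio of 0.67 and of 0.20 after subtraction. Col3a1 had the smallest ratio, at 34634, 37796 and 41354. The 13 other collagen genes were all higher, with a median of 0.28 and of 0.08 after subtraction.

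Basement membrane genes were higher in 14 of 15 cases with a median of 0.37, and of 0.11 after subtraction. Hspg2 led them, with a ratio of 1.13 that was 0.30 after subtraction. Col4a2 stood at 3201, 5030.3 and 6787, Lama4, a laminin chain, at 961, 1378 and 1739 and Lama5 at 97.4, 147 and 198, where the ratio of 0.59 for Lama5 became -0.11 after subtraction. Nid1, nidogen and the most abundant, stood at 8344, 10009 and 11716.

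Among large and matricellular glycoproteins 13 of 19 were higher, with a median of 0.11. Fn1, fibronectin, stood at 28877, 46177 and 61089, a ratio of 0.68 with an interval from 0.66 to 0.70, and of 0.29 after subtraction. Svep1 stood at 2589.6, 3908 and 4854, a ratio of 0.59 and of 0.15 after subtraction. Sparc, a collagen-binding glycoprotein, was steady at 179007, 177439 and 182698. Elastic fibre genes had a median of 0.22 over 17, led by Ltbp2 at 8001, 12841 and 16555, and small leucine-rich proteoglycans 0.15 over 10.

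Collagen-processing genes had a median of 0.06 over 23, with Lox, the crosslinking lysyl oxidase, at 129253, 142120.0 and 161274 and P3h2, a prolyl hydroxylase and the only one past 0.5, at 38.96, 66.9 and 67.7. Metalloproteinases and their inhibitors had a median of 0.11 over 17, from -0.38 for Mmp3, stromelysin (43770.3, 33751 and 19886), to 0.49 for Mmp12, the macrophage elastase (22635, 31817 and 35563). Timp1, the most abundant inhibitor, stood at 137568, 129353 and 116068. The ADAMTS proteases had a member past 0.5 on each side, Adamts9 at 77.9, 119.7 and 126 and Adamts6 at 127, 86.7 and 159. After subtraction none was higher by 0.5, with Adamts9 at 0.42, and 2 were lower by that much. Their median went from 0.08 to -0.01.

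Targets of the force-sensing coactivators had larger medians at 64 than at 8 kPa. Of 22 YAP and TAZ targets, 12 were higher and 10 lower at 8 kPa, with a median of 0.02 against 0.43 for 64 to 0.2 kPa. Ccn2, a matricellular growth regulator and the most abundant target, stood at 23626, 22575 and 54585, a ratio of -0.07. Ankrd1 and Fjx1 (119.9, 78.2 and 96.4) were lower by more than 0.5, as were 0.657% of all genes, and none was higher by that much. Of 18 MRTF and SRF targets, 14 were higher with a median of 0.08 against 0.83 for 64 to 0.2 kPa. Actb, beta-actin, stood at 47207, 49529 and 84152, and Myh9, the heavy chain of non-muscle myosin IIA, was the only target past 0.5, at 1873, 3107 and 6656, a ratio of 0.73 and of 0.37 after subtraction.

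Smooth muscle contractile genes were higher in 11 of 13 cases, with a median of 0.22 against 1.88 for 64 to 0.2 kPa. Acta1, skeletal alpha-actin, stood at 168, 297 and 622, a ratio of 0.82, and Smtn, smoothelin, at 887, 1260.4 and 1557, a ratio of 0.51. Both were higher again at 64 kPa. Mylk, myosin light chain kinase, was lower at 8 than at 0.2 kPa, at 682, 590.1 and 1189, and Cald1, caldesmon, was steady at 28528, 28380.1 and 31481.

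Non-muscle cytoskeleton genes were higher in 18 of 20 cases with a median of 0.30, and of 0.10 after subtraction. Plec, the crosslinker plectin, stood at 1409.6, 2381 and 3356, a ratio of 0.76 that turned to -0.11 after subtraction. The filamin gene Flnc (1372, 2182 and 3565) and the spectrin gene Sptan1 (813, 1327 and 1923) had ratios of 0.67 and 0.71 that were 0.12 and 0.35 after subtraction. Integrin and focal adhesion genes were higher in 29 of 34 cases with a median of 0.16, and of 0.08 after subtraction. Tln1, talin, stood at 1415, 2152 and 3745, Itga11, a collagen-binding integrin chain, at 669, 979 and 1329 and Itga4, a leukocyte integrin chain, at 30.8, 48.1 and 76.9, the 3 members past 0.5, of which 1 passed after subtraction. Itgb1, the common beta chain, stood at 38397, 41186 and 43355. Caveolae and mechanosensitive channel genes had a median of 0.01 over 13, with Trpv2 alone past 0.5, at 399, 577 and 866.

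The list with the highest median among those with at least 5 members was that of large chromatin and transcription regulators. All 27 had a positive ratio with an interval above 0, 17 passed 0.5 (3.94% of all genes), and the median was 0.57. Kmt2d, a histone methyltransferase, stood at 128, 253 and 420.5, a ratio of 0.97, and Bptf, of a chromatin remodeller, at 140.4, 258 and 234. The median transcript length of the list is 10207 bases. After subtraction of the length and GC trend the median was 0.17 and none passed 0.5. Kmt2d then had a ratio of 0.09.

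Very long transcripts of broadly expressed genes were mostly higher too. Of 27, with a median length of 15274 bases, 25 were higher and 11 passed 0.5, against 3.94% of all genes. Their median of 0.45 became -0.02 after subtraction. Dync1h1, the dynein heavy chain, stood at 1298, 2239 and 3049, Lrp1, an endocytic receptor, at 5489, 9309 and 12928 and Ubr4, a ubiquitin ligase, at 682, 1156 and 1615, with ratios of 0.79, 0.76 and 0.76 that were 0.16, 0.02 and 0.12 after subtraction.

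A relation with length was seen across all genes. The Ensembl canonical transcript was matched by symbol for 11655 of the 11873 genes. The 468 higher genes had a median transcript length of 5704 bases, a median of 16 exons and a GC content of 52.7%, the 78 lower genes 2114 bases, 4 exons and 48.6%, and all genes 3485 bases, 9 exons and 50.1%. Across genes, which are not independent replicates and share both libraries, the ratio had a Spearman correlation of 0.30 and, with log2 length, a Pearson correlation of 0.29. With GC content these were 0.18 and 0.16. In the class of longest and most GC-rich transcripts, 376 genes with a median of 6402 bases, the median ratio was 0.30 and 24.5% were higher by 0.5. In the class of shortest and least GC-rich transcripts, 415 genes, the median was -0.05 and 2.41% were higher by 0.5.

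**Figure D4:**
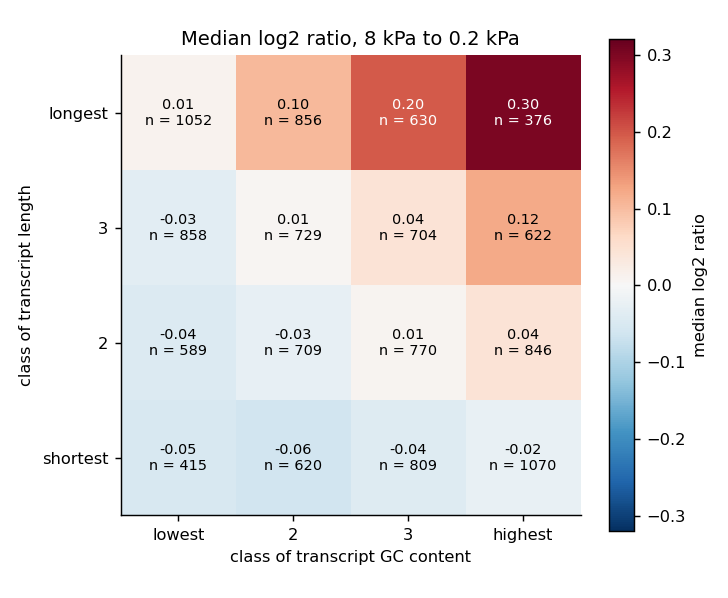
Median log2 ratio of the 8 kPa to the 0.2 kPa library in 16 classes of genes, formed from 4 classes of transcript length (vertical) and 4 of transcript GC content (horizontal), with the number of genes in each. The median rises toward long and GC-rich transcripts, to 0.30 in the top right class, and is -0.05 at the bottom left.

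For each gene a robust line fitted locally to the 300 genes most like it in length and GC content was subtracted from the ratio to show what was left. The fitted trend ran from -0.22 to 0.88. After subtraction 258 genes were higher and 89 lower by 0.5, so that 74.4% of these were higher, against 85.7% of the 468 and 78 before. Of the 468, 237 still passed, and of the 78, 60. RNA length and integrity were not measured in the files, and whether this trend comes from the cells or from the libraries was not tested. After subtraction the median was 0.41 for interferon genes, 0.47 for CC chemokines, 0.17 for CXC chemokines and 0.44 for macrophage genes. It was 0.07 for elastic fibre genes, 0.04 for matricellular glycoproteins, 0.00 for metalloproteinases and their inhibitors and -0.08 for YAP and TAZ targets. Among named genes past 0.5 before it, Syne1 was then at 0.36, Zfp469 at 0.32, Col7a1 at 0.08, Ltbp2 at 0.33, Sorcs2 at 0.39 and Smtn at 0.39. Csmd1, Nav2 and Kif26b, from the highest ratios, were then at 0.71, 0.65 and 0.51.

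**Figure D5:**
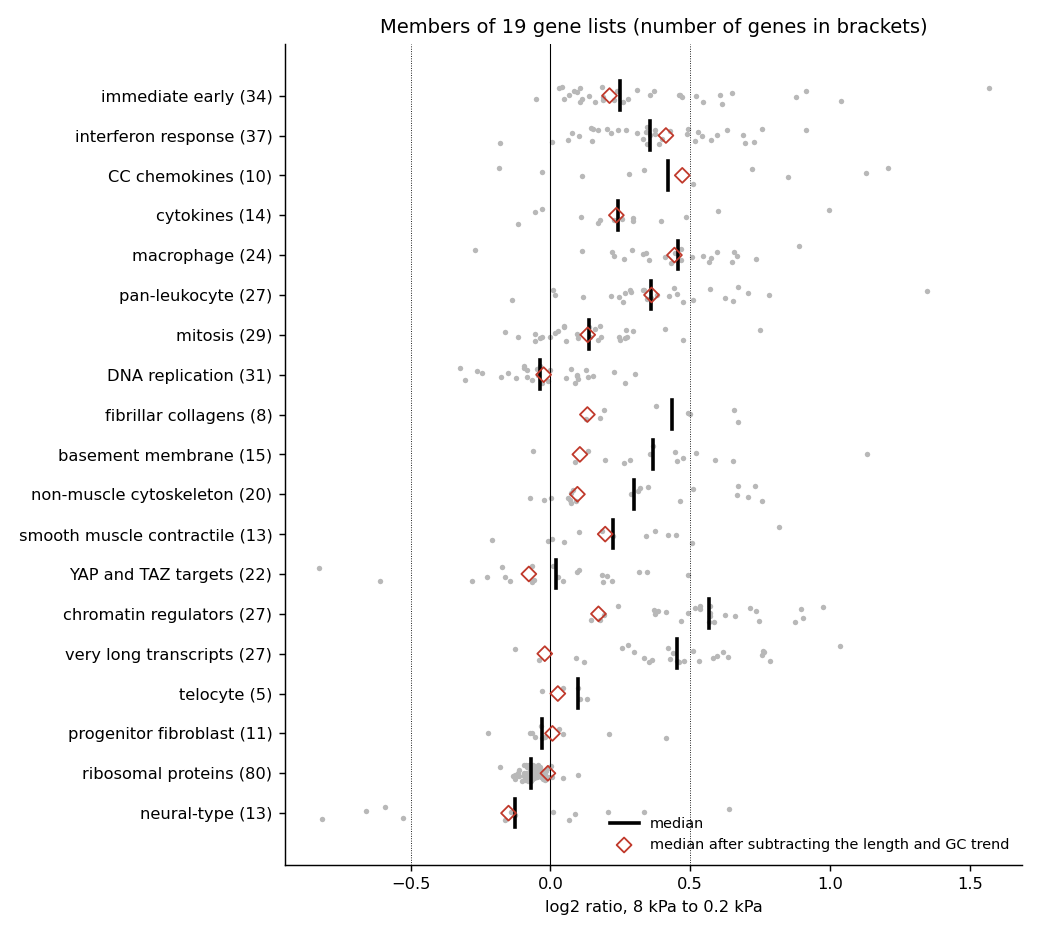
Log2 ratios of the members of 19 gene lists (grey points), with the median of each list (black bar) and its median after subtraction of the length and GC trend (red diamond); dotted lines mark 0.5 and -0.5. The 2 medians lie together for the interferon list (0.36 and 0.41) and the macrophage list (0.46 and 0.44) and apart for chromatin regulators (0.57 and 0.17) and very long transcripts (0.45 and -0.02).

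Signalling families differed in their medians. Wnt genes had a median of -0.06 over 33, from Wnt9a to the feedback gene Axin2 at 72.8, 98.98 and 73.8, and BMP genes 0.02 over 27, where Gdf10 was lower and Bmp6, at 60.5, 85.8 and 119, had the highest ratio, 0.50. TGF-beta genes had a median of 0.12 over 21 and no member past 0.5. Notch genes were higher in 8 of 9 cases with a median of 0.19, and of 0.07 after subtraction, led by the receptors Notch2 (1317, 2202 and 2509) and Notch1 (296, 460.0 and 461), whose ratios of 0.74 and 0.63 were 0.29 and 0.12 after subtraction. Guidance genes were higher in 39 of 43 cases with a median of 0.18, and of 0.05 after subtraction. Of them 5 passed 0.5, against 3.94% of all genes. Sema7a, a membrane-anchored semaphorin, stood at 1648, 2371 and 1375 and Sema6c at 146, 218 and 164, both highest at 8 kPa. Slit3, a secreted guidance ligand (1294, 1885 and 2575), Plxnd1, a semaphorin receptor (647, 933 and 1145), and Efna5, an ephrin (51.3, 73.5 and 76.9), were highest at 64 kPa. Efna5 alone passed 0.5 after subtraction.

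Angiogenic and other growth factors had a median of 0.01 over 20, with Fgf18, a growth factor of cartilage, at 57.4, 94.3 and 91.3 and a ratio of 0.71. The IGF system had a median of 0.08 over 16, from Igfbp5 at 5505, 4541 and 3062 to Pappa2, a protease that frees IGF, at 36.9, 66.9 and 55.4. Sox9, the cartilage transcription factor, stood at 467, 715 and 485, a ratio of 0.61 with an interval from 0.44 to 0.78, and was highest at 8 kPa. Nes, the filament protein nestin, stood at 169, 291 and 774, a ratio of 0.78, and was highest at 64 kPa.

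Housekeeping and metabolic genes had small ratios. Ribosomal protein genes, which have short transcripts, were lower at 8 kPa in 76 of 80 cases, but by a median of only -0.07, and by -0.01 after subtraction. Nuclear genes of oxidative phosphorylation had a median of -0.06 over 79, mitochondrial ribosomal proteins -0.06 over 74 and proteasome subunits -0.03 over 37, with none past 0.5. Cholesterol genes had a median of -0.03 over 24, glycolysis and hypoxia genes 0.03 over 25, cytosolic chaperones -0.01 over 17 and Hox genes -0.05 over 15, again with none past 0.5. Fasn, fatty acid synthase, had a ratio of 0.52 that became -0.07 after subtraction.

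The 8 kPa library lay outside the range of the other libraries by at least 0.5 for few genes. It was above both for 42 genes, 0.354% of those compared, and below both for 20, 0.168%. Farthest above was mt-Atp6, described below. Among named genes outside the mitochondrial genome, Fosb, Arc, Egr3, Nr4a3 and Cxcl9 are among the 10 farthest above. The others of those 10 were Tnfaip8l1 (46.1, 93.3 and 42.05), Serpina3f, a serpin with a near copy (62.5, 125 and 54.4), Bdkrb2, the bradykinin B2 receptor (95.3, 172 and 86.1), Zfp101 (46.1, 82.96 and 33.8) and Col7a1, the anchoring fibril collagen (57.4, 96.2 and 52.3). Tnfaip8l1 and Zfp101 were under 50 in both other libraries, so they entered the comparison only through their 8 kPa level. Tnfaip8l1, Zfp101 and Col7a1 had under 100 normalized counts at 8 kPa. The early gene list held 5 of the 42 and the interferon list 6. The 10 named genes farthest below were Ankrd1, Rerg, Alkal1, Wnt9a, Mthfs, Zfp3, Gon7 (88.2, 57.5 and 90.2), Asb5 (50.2, 32.99 and 120.0), Pcbd1 (58.4, 38.7 and 67.7) and Tbxa2r, the thromboxane receptor (138, 94.3 and 149). Each of them had under 100 normalized counts at 8 kPa, where counting error is large.

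The highest ratio of all genes belonged to a mitochondrial gene and was singled out after its values had been seen. mt-Atp6, a subunit of ATP synthase, stood at 61.5, 759 and 32.8, a ratio of 3.60 with an interval from 3.25 to 4.03. Its neighbours on the mitochondrial genome showed no such rise, but their few reads make them a weak comparison. There mt-Co2 stood at 18.5, 7.54 and 11.3, mt-Atp8 at 8.2, 2.83 and 6.15 and mt-Co3 at 49.2, 38.7 and 35.9. The abundant mt-Co1 stood at 126844, 113848 and 116804. The mt-Atp6 transcript is identical over 678 bases to that of the pseudogene Atp6-ps, so the assignment of its reads is uncertain.

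Promoters were searched over the 250 bases before the start on both strands for 11645 genes. An NF-kappaB site, searched by its consensus, was found in 8.48% of the 460 promoters of higher genes and in none of the 74 of lower genes, against 4.37% of all. Among the 40 promoters of genes highest at 8 kPa by 0.5 it was found in 6, which is 15.0%, while the Egr site, the AP-1 site, the TEAD site and the interferon-stimulated element were each found in 4 and the CArG box in 2. The Ccl20 site shown above lies 80 to 71 bases before the start. The Egr site GCGGGGGCG was found in 3.48% of higher and 3.40% of all promoters, and in 14.7% of the 34 early gene promoters, the Fosb site among them at 44 to 36 bases before the start. The cAMP response element TGACGTCA was found in 3.26% of higher and 2.11% of all promoters, and in 14.7% of early gene promoters. The E-box CACGTG was found in 6.30% of higher and 7.87% of all promoters, and in 7 of the 34 early gene promoters, 20.6%. In the same early gene promoters the TEAD site was found in 14.7%, the NF-kappaB site in 11.8%, the CArG box in 5.88% and the AP-1 site, the sterol response element TCACNCCAC and the interferon-stimulated element in 2.94% each. The sterol response element was found in 1.30% of higher and 1.09% of all promoters. The CArG box, the element bound by SRF, was found in 1.96% of higher and 1.18% of all promoters.

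The interferon-stimulated response element, taken as GAAA, any 2 bases and GAAA, was added to the search after the interferon genes had been seen. It was found in 17 of 37 interferon gene promoters, 45.9%, against 3.02% of all, 3.70% of higher and none of the lower genes' promoters. The Oas3 element lies 70 to 61 bases before the start, and the 2 of Ifit1 lie at 86 to 77 and 67 to 58 on the opposite strand. Interferon genes with the element had a median ratio of 0.37 and the 20 without it 0.34. The TEAD site GGAATG was found in 13.7% of higher, 16.2% of lower and 11.4% of all promoters, and the AP-1 site TGANTCA in 5.65%, 9.46% and 4.68%.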

How the data were processed

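RNA of 3 cultures, 1 per stiffness, had been sequenced from stranded mRNA libraries, per the labels' protocols. The signal values are counts per gene that the authors scaled by 1 size factor for each library. Per the submitters' processing notes bcl2fastq 2.20.0, STAR 2.7.9a, featureCounts (Subread 2.0.1) and DESeq2 1.34.0 were used with build GRCm39; the annotation is not given in the sources used here. The 3 deposited files held the same table. All of its values (100.0%, tolerance 0.001) could be written as a whole number times the lowest nonzero value in the column, which returned whole reads. A read count of 0 allows 3.08, 2.83 and 3.08 normalized counts at 0.2, 8 and 64 kPa.

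Ratios used a pseudocount of 1, which understates differences of low genes, and a minimum mean of 50. No count test was possible with 1 library a side. Lengths, GC content and starts came from GENCODE vM39, matched by symbol; 218 genes had no match and kept their ratio when the trend was subtracted. Similar transcripts were searched for 177 genes, at 90% identity over at least 30% of the length, and 10 had one. The steps were tested on simulated data. Genes and 85 lists were chosen with earlier results of these data known. Named genes were the 15 highest and 15 lowest ratios outside unnamed and mitochondrial genes, list members past 0.5, each list's extremes and most abundant member, markers, the 10 genes with most reads, the 10 farthest above and below both other libraries, and the neighbours of the mean of 50. Ratios and intervals were computed with pandas 2.3.3 and scipy 1.17.1 under Python 3.11.15, and the upper quartile and trimmed mean scalings with edgeR 4.0.16.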

Additional observations from a re-analysis of the deposited data

How the results depend on the processing

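No paired analysis was possible because each stiffness had 1 library. The counts of 468 genes higher and 78 lower by 0.5, and of 20 past 1, moved most with the treatment of low values. With a minimum mean of 10 they were 864, 502 and 215, with a minimum of 200 they were 264, 6 and 8, and with no filter 3973, 3547 and 3646. A pseudocount of 10 gave 49 lower genes and 10 past 1. A mark of 0.25 gave 1657 higher and 517 lower, and a mark of 0.75 gave 105 and 7. With the length and GC trend subtracted, 258 were higher and 13 past 1, and 4 named genes past 0.5 changed sign: Fasn to -0.073, Hectd4 to -0.020, Lama5 to -0.11 and Plec to -0.11. Under at least 1 alternative 25 named genes changed sign, 12 of them with a ratio of 0.1 or more in size. The cause of the trend was not tested. Scaling by total reads, upper quartile, trimmed mean or median ratio moved the median of all genes by 0.036 or less in size. Of 352 named genes, 211 stayed within their counting interval under every alternative run, and 80 of the 137 that moved did so only under the trend subtraction. Changed filters cannot move a gene's ratio, so these counts rest on the other alternatives. Of 73 lists 57 kept their median within the median counting interval of their members, and 9 of the 16 that did not left it only under the trend subtraction. That interval is one for single genes and is wide for a median. The median of 17 lists changed sign under at least 1 alternative, 1 of them, very long transcripts, with a size of 0.1 or more. Depth limits genes under a mean of 100, where the half-width of the counting interval was 0.50.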
